A study of Mus musculus with 21 samples.

Results

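The 10 genes Slc32a1, Hapln1, Wnk4, Slc7a8, Glp1r, S100a16, C1ql2, Exoc3l, Parm1 and Nfatc2 do not belong to the usual lists of blood vessel genes and were picked, out of 55487 gene IDs counted, because their RNA differed strongly with an Etv2 reporter, with the loss of PDGFRalpha from the cell surface or with induced Etv2. The differences that chose the genes are the ones given below, so their errors, and whether they passed the threshold of the fit across all genes, are a description and support nothing. All 10 have a row in both sets of libraries. The libraries are total RNA from sorted cells of day 4 embryoid bodies, which are aggregates of differentiating mouse embryonic stem cells, and 21 libraries form 7 groups of 3. The study's title asks what Etv2+ and Flk1+ progenitors contribute to endothelium, blood and heart.

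DP (double positive) stands for sorted cells that carry PDGFRalpha as well as FLK1 on their surface, and SP (single positive) for those that carry FLK1 and lack PDGFRalpha. In the reporter line, T-GFP;Etv2-tdTomato, DP and SP cells were each divided by the tdTomato signal of the Etv2 reporter, which gave the groups DP Etv2-, DP Etv2+, SP Etv2- and SP Etv2+. All 4 groups carry the T-GFP reporter as well, and whether GFP was used in the sort is not stated in the sources used here. The second set holds wildtype cells of the A2lox.Cre line, WT DP and WT SP, and SP cells of a line with doxycycline-inducible Etv2, iEtv2 SP, which received 2 µg/ml doxycycline from day 2.5. The labels list doxycycline for iEtv2 alone, so cell line, transgene and drug cannot be told apart in that comparison. All lines had been kept on irradiated mouse embryonic fibroblasts and then grown without them before differentiation. Nothing says that the 3 libraries of a group came from separate cultures, so the errors below measure the spread between libraries, which may be technical.

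Etv2 is a transcription factor of the ETS family that mesoderm cells need to form endothelium and blood. FLK1, encoded by Kdr, is a receptor for vascular endothelial growth factor, and PDGFRalpha marks mesoderm of the paraxial and cardiac kind. The 10 genes have other textbook roles: transport of transmitters and amino acids (Slc32a1, Slc7a8), the hyaluronan matrix and the cell surface (Hapln1, Parm1), a hormone receptor and a secreted synaptic protein (Glp1r, C1ql2), intracellular signalling (Wnk4, Nfatc2, S100a16) and vesicle tethering (Exoc3l).

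Levels are given as CPM, a gene's counts scaled to a common library size with TMM factors, and they are compared only within a set because the sets were counted differently. Totals of counts in genes were 25045553 to 32777143 for the reporter libraries and 22406153 to 28184904 for the second set, so 3 counts correspond to between 0.0904 and 0.135 CPM. Etv2 followed the labels, with 18.1 to 23.2 CPM in DP Etv2-, 48.2 to 68.9 in DP Etv2+, 25.6 to 27.7 in SP Etv2-, 78.7 to 109 in SP Etv2+, 49.5 to 58.2 in WT DP, 73.9 to 118 in WT SP and 232 to 250 in iEtv2 SP. The counts do not separate endogenous from induced Etv2. Pdgfra averaged 253 and 150 CPM in DP Etv2- and DP Etv2+ against 51.7 and 37.5 in SP Etv2- and SP Etv2+, and 318 in WT DP against 40.0 in WT SP and 6.74 in iEtv2 SP. Kdr was abundant in every library, with 340.2 to 631 CPM across reporter libraries and 683 to 1016 across WT and iEtv2 libraries. Of the reporter libraries, replicate 2 of SP Etv2- and replicate 3 of SP Etv2+ held 1.28% and 1.17% ribosomal RNA and the other 10 at most 0.337%. In sorted bulk samples, more cells of a type and more RNA per cell cannot be told apart.

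The members moved mostly upward with the reporter and with the SP gate, while their differences under induced Etv2 ran from a large increase to a decrease. A gene is called here when its Benjamini-Hochberg adjusted p, over all genes tested, was below 0.05. In the reporter line 8 members passed the filter on low counts, and S100a16 and C1ql2 did not. With the reporter, 5 of these 8 were called higher in DP, where 16% of the 17690 genes tested were called higher, and 7 of 8 in SP, where 13.1% were. In SP over DP, 5 of 8 were called higher without the reporter (background 6.1%) and 6 of 8 with it (background 6.95%). In the second set, where all 10 were tested among 16288 genes, 8 were called higher in WT SP over WT DP (background 9.08%). With induced Etv2, 7 of 10 were called higher (background 26.4%) and Parm1 was called lower (background 24.4%). Over all genes, the shares called in either direction were 30.7% and 25.5% for the reporter in DP and in SP, 10.9% and 13.9% for the gate without and with it, 15.8% for the gate in WT and 50.8% for induced Etv2. Of all genes, 14.7%, 12.4%, 4.84%, 6.94% and 6.76% were called lower in the first 5 of these. Nothing is read from these shares, since the members were chosen on the same contrasts. The same shares stand behind the counts of relatives given with each gene, and no list of relatives is called particular for its count. The median log2 difference of the members tested was 1.76 and 1.95 for the reporter in DP and in SP, 2.27 and 2.03 for the gate without and with the reporter, 2.77 for the gate in WT and 1.25 for induced Etv2. The median over all genes lay between -0.013 and 0.004 in these 6 comparisons. Groups that do not overlap are common here: among all genes tested, the share was 42% and 44.8% for the reporter in DP and in SP, 32.1% and 32.4% for the gate without and with it, 32.1% for the gate in WT and 60.4% for induced Etv2. The reporter comparisons, and the gate comparisons of the reporter line, share groups of libraries, as do both comparisons of the second set through WT SP.

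**Figure D1:**
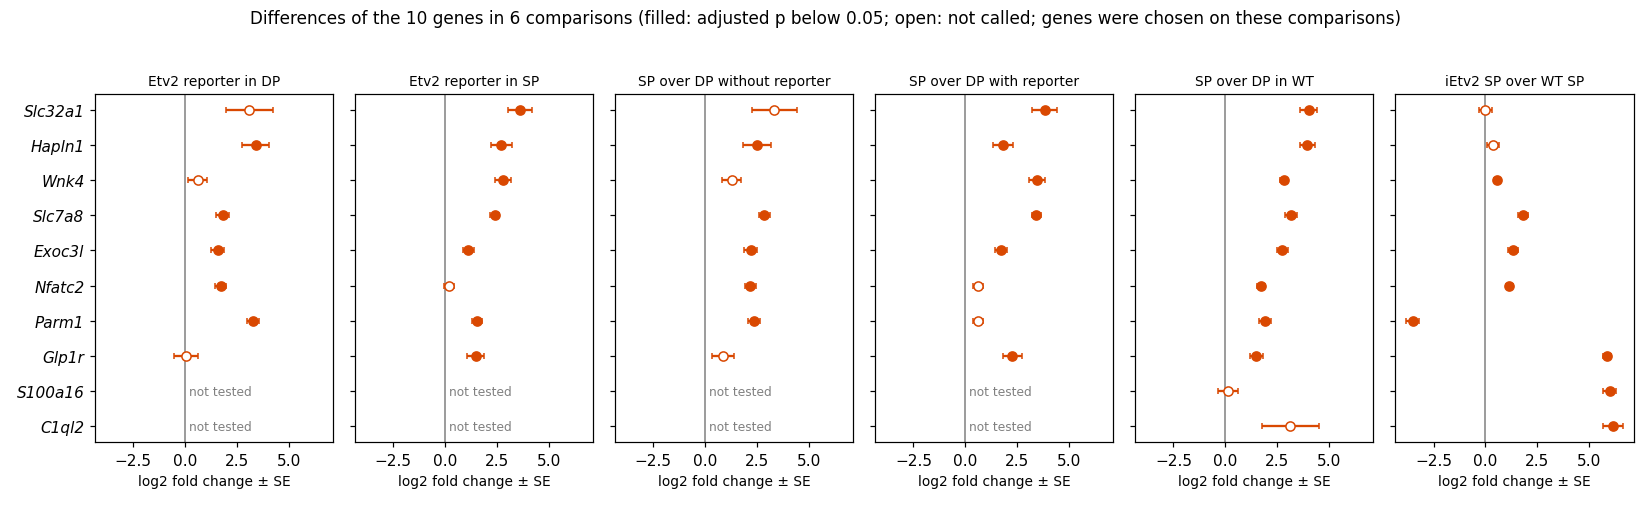
Log2 fold change (x axis) with its standard error for the 10 genes (rows) in 6 comparisons (panels), from 3 libraries per group; filled points were called at an adjusted p below 0.05, open points were not, and the genes were chosen on these comparisons. Slc7a8 and Exoc3l are filled in all 6 panels, Parm1 lies at -3.51 with induced Etv2, and S100a16 and C1ql2 were not tested in the reporter line.

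Slc32a1 is the vesicular transporter that loads GABA and glycine into synaptic vesicles. Its gene lies on chromosome 2 at 158610767 to 158615748 of mm10, on the plus strand, with 2 exons. It was near absent from DP cells and highest in SP Etv2+. The 3 libraries of DP Etv2- had 0.0784, 0 and 0.236 CPM and those of DP Etv2+ 0.478, 0.637 and 1.52. Those of SP Etv2- had 0.251, 0.943 and 1.98 CPM and those of SP Etv2+ 7.44, 8.34 and 22.9. SP Etv2+ lay above every other reporter library, DP Etv2- below every other, and DP Etv2+ and SP Etv2- overlapped. In the second set WT DP had 0.724, 0.715 and 0.271 CPM, WT SP 12.6, 7.91 and 8.11, and iEtv2 SP 14.3, 6.71 and 7.48. WT SP was above WT DP without overlap, and iEtv2 SP spanned the whole range of WT SP.

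The log2 differences of Slc32a1 were 3.60 ± 0.59 (SE) for the reporter in SP, 3.83 ± 0.60 for the gate with the reporter and 4.03 ± 0.41 for the gate in WT, all called. They were 3.09 ± 1.13 for the reporter in DP and 3.33 ± 1.10 for the gate without the reporter, neither called, where DP Etv2- held 9 counts in all. With the replicate number as a block these differences were 3.08 and 3.34, and both were called. With induced Etv2 the difference was -0.01 ± 0.31 and was not called. Replicate 3 was the highest library in all 4 reporter groups. Between same-numbered libraries, in replicates 1, 2 and 3, the fold was 29.7, 8.85 and 11.6 for the reporter in SP. For the gate with the reporter it was 15.6, 13.1 and 15.1. Without replicate 3 of SP Etv2+ alone, the reporter difference in SP was 2.89 and the gate difference with the reporter 3.12. Without both libraries high in ribosomal RNA they were 2.80 and 3.12, and all stayed called. Leaving out replicate 3 of SP Etv2- gave 4.39 for the reporter in SP, and leaving out replicate 3 of DP Etv2+ gave 4.53 for the gate with the reporter. In the mature transcript 76.4% of 50-base windows were unique to the gene, the rest being shared with the antisense gene Gm14205, which had at most 1 count in any library.

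Other transmitter genes moved in both directions. Of 14 genes listed for vesicular transport and GABA handling, 8 were tested in the reporter line. With the reporter, 0 were higher and 3 lower in DP (all genes 16% and 14.7%), against 3 and 1 in SP (13.1% and 12.4%). For the gate, 1 was higher and 2 lower without the reporter (6.1% and 4.84%), and 3 and 0 with it (6.95% and 6.94%). In the second set 9 were tested, with 3 higher and 2 lower for the gate in WT, and 3 higher and 0 lower with induced Etv2. Gad2, an enzyme that makes GABA, had 2.69, 2.74 and 8.43 CPM in SP Etv2+ against 0.753, 0.910 and 2.08 in SP Etv2- (log2 difference 1.89 ± 0.46, adjusted p = 0.00988). Unlike Slc32a1 it also rose with induced Etv2, from 5.30, 2.82 and 2.38 CPM in WT SP to 31.5, 17.7 and 20.6 (2.73 ± 0.29, adjusted p = 2.48e-05). The library with the most Gad2 was also the one with the most Slc32a1 in SP Etv2-, SP Etv2+, WT SP and iEtv2 SP. In DP Etv2-, DP Etv2+ and WT DP it was a different library. Slc18a2, which loads monoamines into vesicles, rose with induced Etv2 by 1.92 ± 0.14 (adjusted p = 1.25e-06).

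Over the 7 group means, Cbfa2t3, a transcriptional corepressor of blood cells, had the pattern nearest to that of Slc32a1, with a root mean square difference of 0.13 on the log2(CPM + 0.5) scale centred within each set. Tnfaip2 came next at 0.30. Among the 10 genes themselves the nearest to Slc32a1 was Wnk4, at 0.28. Outside SP Etv2+, Slc32a1 averaged at most 1.06 CPM in the reporter groups, where the added 0.5 shrinks its differences. The fitted log2 differences for the reporter in DP were 3.09 ± 1.13 for Slc32a1, 1.72 ± 0.35 for Cbfa2t3 and 0.60 ± 0.46 for Wnk4. The promoter of Slc32a1 is shown, with those of Wnk4, S100a16, C1ql2 and Nfatc2 below, because these genes include the pairs with the closest patterns. These are the 250 bases before the RefSeq start site on GRCm38.p6, read 5′ to 3′ on the gene's strand.

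Slc32a1 chr2:158610508-158610757 (+ strand): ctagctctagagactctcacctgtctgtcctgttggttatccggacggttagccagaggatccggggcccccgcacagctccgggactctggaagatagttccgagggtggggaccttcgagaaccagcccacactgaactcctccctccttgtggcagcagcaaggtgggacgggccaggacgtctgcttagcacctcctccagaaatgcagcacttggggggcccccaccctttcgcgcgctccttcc

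Capitals mark matches, on either strand, to the ETS motifs GGAAGT, CCGGAAGT and CAGGAAGT (the first is contained in the other two), the GATA motif AGATAA, the FOX motif TGTTTAC and the E-box CAGCTG. There is none in these bases of Slc32a1, and of the genes whose promoter is not shown only Parm1 has any, a CAGCTG at positions -28 and 16 from the start. Of 32851 mouse promoter windows of 300 bases in the same table (250 before and 50 after the start), 23.8% hold GGAAGT, 3.89% CCGGAAGT, 3.33% CAGGAAGT, 11.2% AGATAA, 3.65% TGTTTAC and 16.3% CAGCTG. The table has 11 windows for 9 of the 10 genes and none for Exoc3l. A match is a string of letters and not a bound site.

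**Figure D2:**
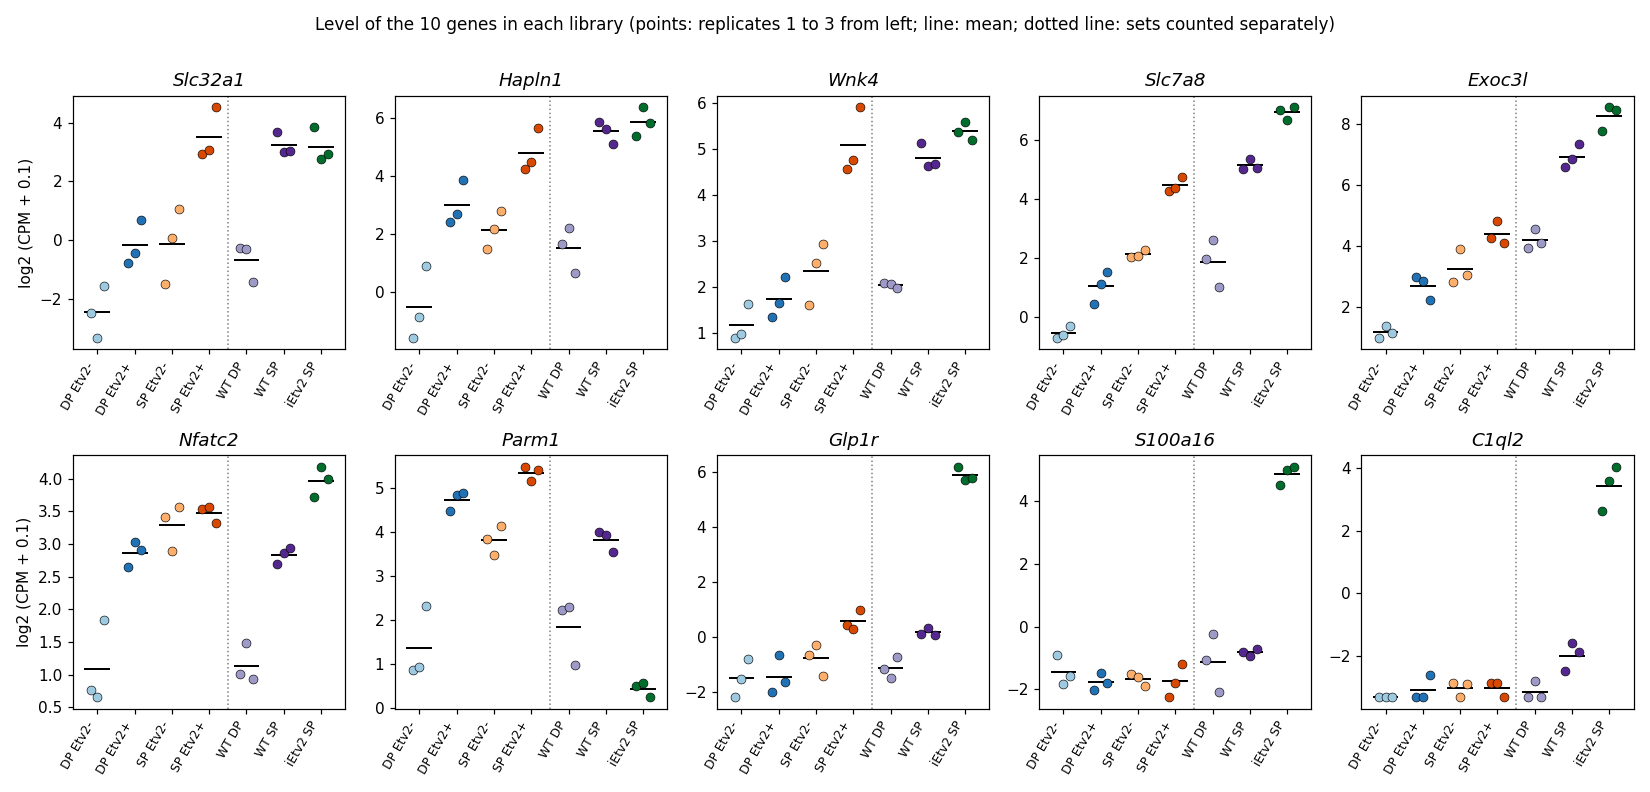
Level of each of the 10 genes as log2(CPM + 0.1) (y axis, scaled per panel) in the 21 libraries by group (x axis); points are replicates 1 to 3 from left, lines are group means of the plotted values, and a dotted line parts the sets counted separately. Slc32a1 and Hapln1 overlap between WT SP and iEtv2 SP, and Wnk4 stands slightly higher in iEtv2 SP without overlap. Glp1r, S100a16 and C1ql2 stand far higher in iEtv2 SP, and Parm1 stands lowest there.

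Slc7a8 exchanges neutral amino acids across the plasma membrane and works as a heterodimer with Slc3a2. Its gene spans 54722209 to 54781946 on the minus strand of chromosome 14. Slc7a8 rose stepwise over the 4 reporter groups and again with induced Etv2. DP Etv2- had 0.509, 0.542 and 0.707 CPM, DP Etv2+ 1.25, 2.06 and 2.79, SP Etv2- 3.98, 4.03 and 4.74, and SP Etv2+ 19.4, 20.4 and 26.7. WT DP had 3.81, 5.98 and 1.90 CPM, WT SP 32.5, 40.4 and 33.1, and iEtv2 SP 130.2, 103 and 139. Neighbouring groups in this order did not overlap in either set. The log2 differences were 1.80 ± 0.30 for the reporter in DP and 2.38 ± 0.20 in SP. They were 2.85 ± 0.28 and 3.43 ± 0.22 for the gate without and with the reporter, 3.17 ± 0.28 for the gate in WT and 1.81 ± 0.23 for induced Etv2. All 6 were called, and each library left out in turn kept them called.

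Its partner Slc3a2 changed far less. Slc3a2 rose from 187 ± 5.95 CPM in SP Etv2- to 248 ± 8.13 in SP Etv2+ (SD, n = 3; log2 difference 0.40 ± 0.05, adjusted p = 0.000132) and by 0.24 ± 0.07 with induced Etv2 (adjusted p = 0.0159). Of 15 transporters of the Slc7, Slc3 and Slc43 families, 11 were tested, and 4 were higher and 2 lower with the reporter in SP, 5 and 0 for the gate in WT, and 5 and 2 with induced Etv2. Slc7a7, an exporter of cationic amino acids, fell by 1.63 ± 0.15 with the reporter in DP (adjusted p = 7.5e-06) and rose by 1.85 ± 0.14 with induced Etv2 (adjusted p = 1.74e-06). Slc43a2, a neutral amino acid carrier, and Slc7a3, a cationic one, rose with induced Etv2 by 1.69 ± 0.12 and 1.60 ± 0.21 (adjusted p = 1.2e-06 and 8.97e-05). The genes with the pattern nearest to Slc7a8 were the blood transcription factors Lyl1, at 0.33, and Myb, at 0.44.

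Hapln1 is the link protein that ties proteoglycans such as versican to hyaluronan. Its gene spans 89539796 to 89611652 on the plus strand of chromosome 13, 43659 bases from Vcan, which encodes versican, and 216572 bases from Edil3 on the other side. Hapln1 was higher in reporter-positive than in reporter-negative cells of both gates. DP Etv2- had 0.235, 0.452 and 1.75 CPM and DP Etv2+ 5.26, 6.37 and 14.5. SP Etv2- had 2.73, 4.39 and 6.89 CPM and SP Etv2+ 19.0, 22.6 and 50.1. SP Etv2- and DP Etv2+ overlapped, DP Etv2- lay below and SP Etv2+ above both. WT DP had 3.09, 4.55 and 1.49 CPM, WT SP 59.3, 49.2 and 34.8, and iEtv2 SP 42.0, 83.6 and 57.0, so iEtv2 SP overlapped WT SP.

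The log2 differences of Hapln1 were 3.41 ± 0.65 and 2.71 ± 0.50 for the reporter in DP and in SP, 2.50 ± 0.68 and 1.80 ± 0.48 for the gate without and with the reporter and 3.96 ± 0.36 for the gate in WT, all called. The difference with induced Etv2 was 0.35 ± 0.29 and was not called. The reporter difference in DP was 4.61 without replicate 3 of DP Etv2- and 2.81 without replicate 3 of DP Etv2+, and the reporter difference in SP was 2.11 without both libraries high in ribosomal RNA. With the replicate number as a block both gate differences in the reporter line were called, at 2.58 without and 1.82 with the reporter. Between same-numbered libraries the fold was 11.6, 9.71 and 3.94 without the reporter and 3.61, 3.55 and 3.46 with it. In the fit without the block, both lost their call when single libraries were left out. For the gate without the reporter these were replicate 1 (2.10) or 2 (2.17) of DP Etv2- and replicate 2 (2.55) or 3 (2.11) of SP Etv2-, and without replicate 3 of DP Etv2- the value was 3.70. For the gate with the reporter they were replicate 1 (1.53) or 2 (1.62) of DP Etv2+ and replicate 3 of SP Etv2+ (1.24), and without replicate 3 of DP Etv2+ the value was 2.40.

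Genes of the hyaluronan matrix did not move as a block with Hapln1. Of 20 listed, 13 were tested, and 4 were higher and 3 lower with the reporter in DP, 5 and 1 in SP, 2 and 2 for the gate in WT, and 5 and 4 with induced Etv2. Vcan had 237, 262 and 178 CPM in WT SP against 13.2, 35.9 and 24.1 in iEtv2 SP, and fell by 3.21 ± 0.29 on the log2 scale (adjusted p = 7.78e-06). Stab1, a scavenger receptor of sinusoidal endothelium, rose with induced Etv2 by 5.85 ± 0.38 (adjusted p = 6.84e-07), from 1.49 ± 0.567 to 86.3 ± 34.7 CPM (SD, n = 3). Cemip, which takes part in hyaluronan breakdown, fell by 2.52 ± 0.38 with the reporter in DP (adjusted p = 0.000361).

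Edil3, which encodes a secreted integrin ligand and is the other neighbour of Hapln1, rose with the reporter by 1.73 ± 0.57 in DP and 2.46 ± 0.50 in SP (adjusted p = 0.0357 and 0.00361). It also rose for the gate in WT by 2.56 ± 0.32 (adjusted p = 0.000466) and with induced Etv2 by 2.72 ± 0.24 (adjusted p = 6.71e-06), the comparison in which Hapln1 was not called. The nearest pattern to Hapln1 was that of Lmo2, an adaptor of blood and endothelial transcription complexes, at 0.34, followed by Cbfa2t3 at 0.43.

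Parm1 encodes a mucin-like membrane protein, and its gene spans 91517615 to 91626894 on the plus strand of chromosome 5. It was the member that rose with the reporter and fell with induced Etv2. DP Etv2- had 1.72, 1.81 and 4.88 CPM, SP Etv2- 14.4, 11.1 and 17.5, DP Etv2+ 22.3, 28.7 and 29.9, and SP Etv2+ 45.1, 35.7 and 42.8. WT DP had 4.57, 4.84 and 1.85 CPM, WT SP 16.1, 15.1 and 11.6, and iEtv2 SP 1.3, 1.37 and 1.08. No groups overlapped in either set, and iEtv2 SP was even below WT DP. The log2 differences were 3.26 ± 0.30 and 1.52 ± 0.25 for the reporter in DP and in SP, 2.35 ± 0.30 for the gate without the reporter, 1.92 ± 0.28 for the gate in WT and -3.51 ± 0.31 for induced Etv2, all called. The gate difference with the reporter, 0.61 ± 0.25, was not called. Without replicate 3 of DP Etv2- the reporter difference in DP was 3.92 and the gate difference without the reporter 3.01.

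Other sialomucins and mucin-like surface proteins moved in both directions with induced Etv2. Of 16 listed, 10 were tested in the second set, with 4 higher and 3 lower, and 9 in the reporter line, with 3 higher and 2 lower for the reporter in DP and 1 and 0 in SP. Emcn, a sialomucin of venous and capillary endothelium, rose with induced Etv2 by 6.37 ± 0.67 (adjusted p = 1.96e-05), from at most 0.118 CPM in WT SP to 2.19, 6.63 and 5.58. Cd34, carried by endothelial and blood progenitors, rose by 5.26 ± 0.31 (adjusted p = 3.41e-07) and the adhesion protein gene Mcam by 2.35 ± 0.17 (adjusted p = 1.31e-06). The 3 that were lower, as Parm1 was, were Podxl (podocalyxin), which fell by 2.00 ± 0.13 from 753 to 188 CPM (adjusted p = 6.89e-07), the leukocyte sialomucin Spn, by 1.45 ± 0.26 (adjusted p = 0.000777), and Cd164, by 0.27 ± 0.08 (adjusted p = 0.0118). The genes with the nearest pattern to Parm1 were Ankrd1, a muscle ankyrin-repeat gene, at 0.32, and Flrt3, at 0.46. With induced Etv2, 5 of 7 tested cardiomyocyte markers also fell, and the summed level of the 8 listed went from between 32 and 41.4 CPM in WT SP to between 3.11 and 3.85, with Nppa at 0 in WT SP. Their part in the fall of Parm1 was not tested.

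Glp1r is the receptor of glucagon-like peptide-1, known from pancreatic beta cells, and its gene spans 30901817 to 30940791 on the plus strand of chromosome 17. It was scarce in every group except iEtv2 SP. DP Etv2- had 0.118, 0.241 and 0.471 CPM, DP Etv2+ 0.147, 0.525 and 0.217, SP Etv2- 0.538, 0.715 and 0.273, and SP Etv2+ 1.25, 1.11 and 1.88. SP Etv2+ was above the other reporter libraries, which overlapped each other. WT DP had 0.343, 0.253 and 0.496 CPM, WT SP 0.981, 1.14 and 0.934, and iEtv2 SP 74.0, 52.1 and 55.3, with no overlap. The log2 differences called were 1.47 ± 0.42 for the reporter in SP, 2.27 ± 0.46 for the gate with the reporter, 1.49 ± 0.32 for the gate in WT and 5.88 ± 0.19, a 58.9-fold difference, for induced Etv2. Those of 0.05 ± 0.59 for the reporter in DP and 0.85 ± 0.53 for the gate without it were not called. The reporter difference in SP lost its call without replicate 1 (1.5) or 3 (1.17) of SP Etv2-, without replicate 3 of SP Etv2+ (1.21) and without both libraries high in ribosomal RNA (1.54), and the gate difference with the reporter was 2.92 without replicate 2 of DP Etv2+.

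Receptors of the class of Glp1r moved in both directions with induced Etv2. Of 20 receptors, partners and ligand-processing genes listed, 10 were tested, and 5 were higher and 3 lower with induced Etv2, where 26.4% and 24.4% of all genes were, and 3 and 3 for the reporter in SP, where 13.1% and 12.4% were. Ramp3, an accessory protein that sets the ligand choice of such receptors, rose from 0.477 to 5.58 CPM (log2 difference 3.53 ± 0.32, adjusted p = 7.37e-06). Pth1r, the parathyroid hormone receptor, fell by 3.47 ± 0.21 (adjusted p = 3.83e-07). Gipr, the receptor of the other incretin hormone, fell by 2.81 ± 0.56 with the reporter in DP (adjusted p = 0.00204) and by 2.19 ± 0.54 in SP (adjusted p = 0.0104). The neighbouring gene Dnah8, 24451 bases away, fell with the reporter by 1.22 ± 0.19 in DP (adjusted p = 0.000366) and rose with induced Etv2 by 1.99 ± 0.26 (adjusted p = 8.31e-05). The patterns nearest to Glp1r were those of Cd34, at 0.25, and of the endothelial surface gene Thsd1, at 0.28, which rose with induced Etv2 by 5.04 ± 0.13 (adjusted p = 5.1e-09).

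C1ql2 is a secreted protein of the C1q family found at synapses, and its gene spans 120340582 to 120343174 on the plus strand of chromosome 1. Outside iEtv2 SP it was at the limit of detection. The 12 reporter libraries held 6 counts in all, with 0 in each library of DP Etv2-, where 3 counts would be 0.0904 to 0.118 CPM, and no fold is given. WT DP had 0, 0.0421 and 0 CPM, WT SP 0.0785, 0.228 and 0.170, and iEtv2 SP 6.17, 12 and 16.6. Induced Etv2 therefore went with 965 counts against 12, a ratio of 74.0 (95% exact interval 42.2 to 144, for counting error only), and a fitted log2 difference of 6.14 ± 0.48. For the gate in WT, 12 counts stood against 1, a ratio of 11.5 (1.70 to 492), and the fitted difference was not called.

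S100a16, a calcium-binding protein of the S100 family, lies at 90537254 to 90543151 on the plus strand of chromosome 3. It too was low everywhere except in iEtv2 SP. The reporter groups had 0.111 to 0.431 CPM and 17 to 24 counts each, with the ratio 0.727 (95% exact interval 0.367 to 1.41) for the reporter in DP and 1.00 (0.495 to 2.01) in SP. These intervals cover counting error and not the spread between libraries. WT DP had 0.381, 0.758 and 0.135 CPM, WT SP 0.471, 0.419 and 0.509, and iEtv2 SP 23.1, 32.1 and 34.6. The gate in WT made no detectable difference at this depth, 0.12 ± 0.48 on the log2 scale, and induced Etv2 gave 5.99 ± 0.32, a 63.7-fold difference.

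S100a16 and C1ql2 were the pair of members with the most similar patterns, at 0.25, and their promoters are printed together for that reason. No capitals occur in these windows. A second RefSeq start of S100a16 has a CAGCTG at position -119.

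S100a16 chr3:90537004-90537253 (+ strand): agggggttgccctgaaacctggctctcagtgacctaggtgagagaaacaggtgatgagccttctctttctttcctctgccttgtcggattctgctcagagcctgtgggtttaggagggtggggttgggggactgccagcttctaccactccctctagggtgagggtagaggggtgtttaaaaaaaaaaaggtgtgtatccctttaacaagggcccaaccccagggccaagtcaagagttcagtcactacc
C1ql2 chr1:120340332-120340581 (+ strand): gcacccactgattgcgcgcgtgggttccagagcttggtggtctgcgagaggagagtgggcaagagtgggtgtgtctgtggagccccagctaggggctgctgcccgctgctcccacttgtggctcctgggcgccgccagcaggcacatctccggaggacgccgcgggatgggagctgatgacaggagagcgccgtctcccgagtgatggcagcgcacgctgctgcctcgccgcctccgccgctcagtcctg

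Both families moved in mixed directions. Of 16 S100 genes 6 were tested, with 1 higher and 3 lower for induced Etv2. S100a10 fell by 1.80 ± 0.14 (adjusted p = 2.82e-06), from 200 to 57.3 CPM, and S100a6 fell by 1.17 ± 0.28 (adjusted p = 0.00445), while S100a13 rose by 0.64 ± 0.20 (adjusted p = 0.0203). Of 20 genes of the C1q and cerebellin family 11 were tested in the second set, with 4 higher and 3 lower for induced Etv2. Cbln1, another synaptic organizer, was lower in all 6 comparisons, by 1.3 ± 0.18 with the reporter in SP (adjusted p = 0.000413) and by 2.04 ± 0.23 with induced Etv2 (adjusted p = 3.37e-05). C1qtnf6 rose with induced Etv2 by 1.49 ± 0.16 (adjusted p = 2.32e-05) and C1qtnf1 rose with the reporter in SP by 1.24 ± 0.32 (adjusted p = 0.0132).

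The genes with patterns nearest to S100a16 and C1ql2 were the same pair, Klhl3, at 0.21 and 0.16, and Hprt, at 0.24 and 0.16. The low counts of both members in the reporter line limit these matches too, since any gene that is even there comes close to them. Hprt is a purine salvage enzyme at whose locus the inducible transgene is placed in lines of the A2lox kind. It had 3.14, 4.64 and 3.57 CPM in WT SP against 91.5, 96.4 and 83.3 in iEtv2 SP, and 75.3 to 93.6 in the reporter line. That is a log2 difference of 4.57 ± 0.13 (adjusted p = 1.32e-08) between the iEtv2 and WT lines. Its part in the rises of Glp1r, S100a16 and C1ql2 was not tested.

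Wnk4 is a kinase that controls chloride cotransporters through the kinases Oxsr1 and Stk39 and is itself removed by way of Klhl3. Its gene spans 101260567 to 101277409 on the plus strand of chromosome 11. Wnk4 was set apart in SP Etv2+. DP Etv2- had 1.76, 1.87 and 3.0 CPM, DP Etv2+ 2.43, 3.03 and 4.53, SP Etv2- 2.94, 5.59 and 7.50, and SP Etv2+ 23.6, 26.8 and 59.8. The first 3 groups overlapped their neighbours in this order and SP Etv2+ did not. WT DP had 4.15, 4.08 and 3.83 CPM, WT SP 34.8, 24.6 and 25.2, and iEtv2 SP 41.3, 47.5 and 36.5, with no overlap.

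The log2 differences of Wnk4 called were 2.78 ± 0.38 for the reporter in SP, 3.45 ± 0.40 for the gate with the reporter, 2.81 ± 0.16 for the gate in WT and 0.57 ± 0.14, a 1.48-fold difference, for induced Etv2. Those of 0.60 ± 0.46 for the reporter in DP and 1.27 ± 0.44 for the gate without the reporter were not called. With the replicate number as a block both were called, at 0.59 and 1.27. Replicate 3 was the highest library in all 4 reporter groups for Wnk4, as it was for Slc32a1, Hapln1 and Slc7a8. The pattern of Wnk4 was nearest to those of the blood transcription factors Myb, at 0.19, and Gata2, at 0.25. Its promoter, next to that of Slc32a1 in pattern, holds none of the motifs.

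Wnk4 chr11:101260317-101260566 (+ strand): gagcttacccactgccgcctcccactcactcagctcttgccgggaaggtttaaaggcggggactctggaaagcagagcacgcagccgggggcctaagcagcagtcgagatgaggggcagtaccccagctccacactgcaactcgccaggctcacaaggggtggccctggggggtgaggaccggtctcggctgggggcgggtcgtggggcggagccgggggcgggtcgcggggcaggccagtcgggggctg

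Of 18 genes of the Wnk pathway 15 were tested, and 2 were higher and 2 lower with the reporter in SP, 5 and 1 for the gate in WT, and 8 and 1 with induced Etv2. Klhl3 had 2.55, 2.43 and 2.63 CPM in WT SP against 50.9, 70.1 and 68.5 in iEtv2 SP (log2 difference 4.64 ± 0.15, adjusted p = 1.77e-08). It stayed between 0.542 and 1.22 CPM in the reporter line and was called in none of the reporter or gate comparisons there. Wnk2, a related kinase, rose with induced Etv2 by 2.01 ± 0.25 (adjusted p = 7.4e-05). Sgk1, a kinase that acts on the same transporters, fell by 1.36 ± 0.17 with the reporter in DP (adjusted p = 0.000102) and rose by 0.72 ± 0.12 with induced Etv2 (adjusted p = 0.000616).

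Nfatc2 is a transcription factor that calcineurin moves into the nucleus when calcium rises, and its gene spans 168476410 to 168601657 on the minus strand of chromosome 2. The reporter went with higher Nfatc2 in DP and made little difference in SP. DP Etv2- had 1.61, 1.48 and 3.47 CPM, DP Etv2+ 6.14, 8.02 and 7.41, SP Etv2- 10.5, 7.31 and 11.7, and SP Etv2+ 11.5, 11.8 and 9.83. DP Etv2- lay below all others, and each further group overlapped the next. WT DP had 1.91, 2.69 and 1.80 CPM, WT SP 6.36, 7.15 and 7.60, and iEtv2 SP 13.1, 18.1 and 15.8, with no overlap. The log2 differences called were 1.72 ± 0.27 for the reporter in DP, 2.17 ± 0.27 for the gate without the reporter, 1.72 ± 0.19 for the gate in WT and 1.15 ± 0.17 for induced Etv2. Those of 0.17 ± 0.23 for the reporter in SP and 0.62 ± 0.24 for the gate with the reporter were not called.

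Nfatc2 was the only member with an ETS or FOX motif in a promoter window. GGAAGT stands at position -110 on the gene's strand and TGTTTAC at position -185 on the other strand, so it reads GTAAACA here. A second RefSeq start of the gene has neither.

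Nfatc2 chr2:168601658-168601907 (- strand): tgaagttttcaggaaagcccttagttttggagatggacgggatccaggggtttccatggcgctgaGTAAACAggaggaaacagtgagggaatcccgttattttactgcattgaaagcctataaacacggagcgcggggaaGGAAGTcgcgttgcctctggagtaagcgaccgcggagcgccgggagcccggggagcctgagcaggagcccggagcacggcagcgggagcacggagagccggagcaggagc

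Of 19 genes of the NFAT and calcineurin pathway 18 were tested, and 5 were higher and 2 lower with the reporter in DP, 4 and 2 in SP, and 6 and 3 with induced Etv2. These counts lie near the shares of all genes called in the same comparisons (30.7%, 25.5% and 50.8%), and the median log2 difference of the list was -0.01, 0.06 and 0.01. Rcan3 and Rcan2, regulators of calcineurin, rose with induced Etv2 by 2.86 ± 0.11 and 1.91 ± 0.30 (adjusted p = 3.56e-08 and 0.000327). Stim1, the calcium sensor of the endoplasmic reticulum, rose by 1.65 ± 0.12 (adjusted p = 1.28e-06). The nearest patterns to Nfatc2 were those of Tdrp and of the endothelial and endodermal factor Sox17, both at 0.26.

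Exoc3l is a relative of the exocyst subunit Exoc3, part of the complex that tethers vesicles to the plasma membrane. Its gene spans 105289924 to 105296101 on the minus strand of chromosome 8. Like Slc7a8 it was higher in all 6 comparisons. DP Etv2- had 1.88, 2.50 and 2.09 CPM, DP Etv2+ 7.80, 7.08 and 4.59, SP Etv2- 6.96, 14.6 and 8.08, and SP Etv2+ 19.1, 28 and 17.1. DP Etv2+ and SP Etv2- overlapped and the lowest and highest groups stood apart. WT DP had 15.0, 23.5 and 16.8 CPM, WT SP 96.0, 114 and 160.3, and iEtv2 SP 216, 374 and 353, with no overlap. The log2 differences were 1.57 ± 0.32 and 1.11 ± 0.27 for the reporter in DP and in SP, 2.19 ± 0.31 and 1.73 ± 0.28 for the gate without and with the reporter, 2.74 ± 0.26 for the gate in WT and 1.35 ± 0.24 for induced Etv2. Each library left out in turn kept all 6 called. Its exons overlap 531 bases of the antisense gene Gm20163, which had 0.337 to 1.59 CPM. The strand setting of the counting is not given in the sources used here, so reads of the antisense gene cannot be told apart.

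Of 15 exocyst subunits and relatives 14 were tested, and 5 were higher and 1 lower with the reporter in DP, 4 and 1 in SP, 6 and 0 for the gate in WT, and 5 and 1 with induced Etv2. Exoc6, a subunit of the complex itself, was also higher in all 6 comparisons, with 11.9 ± 0.346 CPM in SP Etv2- and 23.5 ± 3.96 in SP Etv2+ (SD, n = 3; log2 difference 0.99 ± 0.11, adjusted p = 7.06e-05) and a rise of 1.74 ± 0.10 with induced Etv2 (adjusted p = 3.83e-07). Tnfaip2, an exocyst relative, rose by 2.70 ± 0.39 with the reporter in SP (adjusted p = 0.000474) and by 3.03 ± 0.34 for the gate in WT (adjusted p = 0.000228). It was also the second nearest pattern to Slc32a1. Ralb, a small GTPase that binds the exocyst, rose with induced Etv2 by 1.81 ± 0.09 (adjusted p = 1.39e-07). The patterns nearest to Exoc3l were those of Lrrc8b, a subunit of volume-regulated channels, at 0.19, and Gadd45g, at 0.23.

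**Figure D3:**
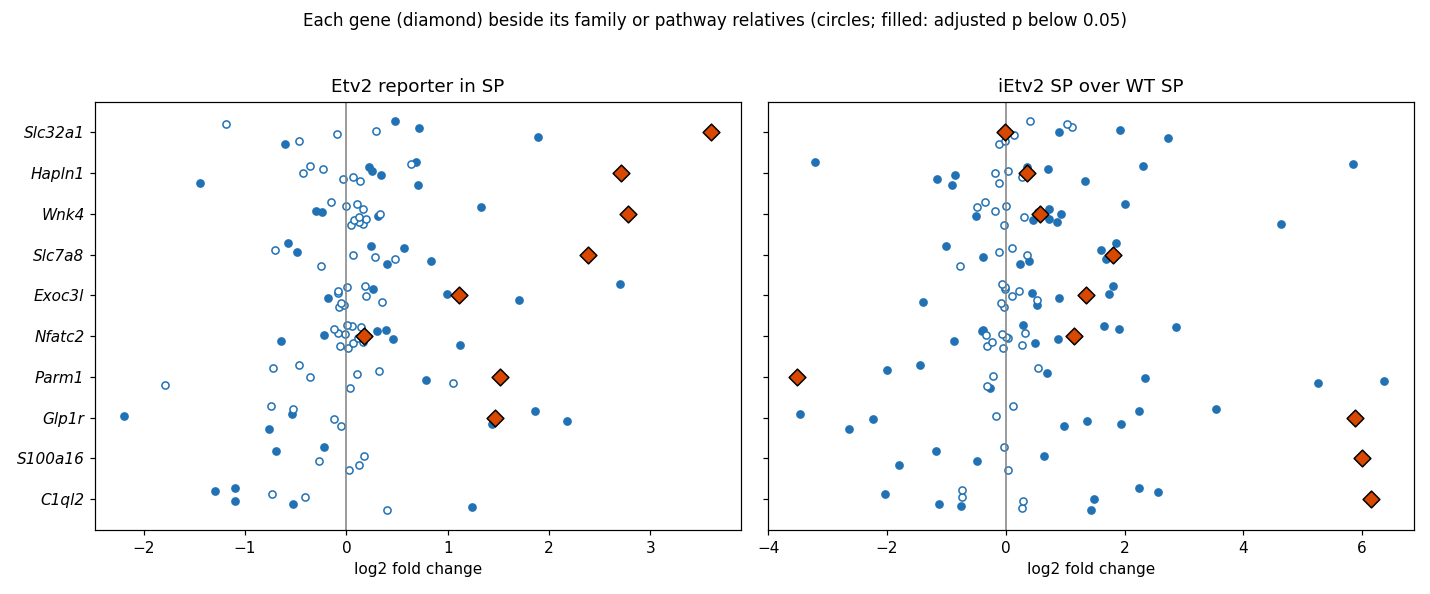
Log2 fold change (x axis) of each of the 10 genes (diamonds, rows) beside the listed genes of its family or pathway that were tested (circles, filled at an adjusted p below 0.05), for the Etv2 reporter in SP (left) and for iEtv2 SP over WT SP (right). Slc32a1 at 3.60 lies beyond all its relatives on the left and is at -0.01 on the right. In the right panel Stab1 at 5.85 lies far to the right of Hapln1, and Emcn at 6.37 and Cd34 at 5.26 far to the right of Parm1. Podxl at -2.00 also lies to the right of Parm1, which is at -3.51.

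The median log2 difference of the tested relatives ran from -0.63 (C1q and cerebellin family) to 0.24 (amino acid transporters) for the reporter in SP, where that of all genes was -0.013. It ran from -0.26 (S100 genes) to 0.90 (transmitter genes) with induced Etv2, where that of all genes was 0.002.

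Compared across contexts, Slc7a8 and Exoc3l were called higher in all 6 comparisons, Hapln1 in 5, and Wnk4, Glp1r, Parm1 and Nfatc2 in 4. Slc32a1 was called higher in 3 of 6, and S100a16 and C1ql2 in 1 of the 2 in which they were tested. The reporter effect in SP minus that in DP was called for 2 of 8 members, Parm1 at -1.73 ± 0.39 and Nfatc2 at -1.55 ± 0.36, where 2.45% of all genes were called lower, 1.52% higher and 3.97% in either direction. With the replicate number as a block both stayed called, at -1.75 and -1.55, and Wnk4 was called in the opposite direction, at 2.14 (2.18 ± 0.60 without the block, not called). The counts of comparisons above are from the fit without the block. In the reporter comparisons the block also called Slc32a1 and Wnk4 in DP, as given above, which adds 1 comparison to the count of each. For the gate, where the pairing is only a hint from the data, it also called both without the reporter, Parm1 with the reporter and C1ql2 in WT. Per kilobase of exon, iEtv2 SP had the most Exoc3l, at 85.1 ± 23.2 CPM (SD, n = 3), then Slc7a8 at 24.7 ± 3.76 and S100a16 at 18.5 ± 3.74. Glp1r at 10.4 ± 2.03, Hapln1 at 10.3 ± 3.57 and Wnk4 at 10.1 ± 1.33 were within their spread of each other. C1ql2 had 5.79 ± 2.6, Slc32a1 3.40 ± 1.5, Nfatc2 1.48 ± 0.234 and Parm1 0.247 ± 0.0298 CPM per kilobase.

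**Figure D4:**
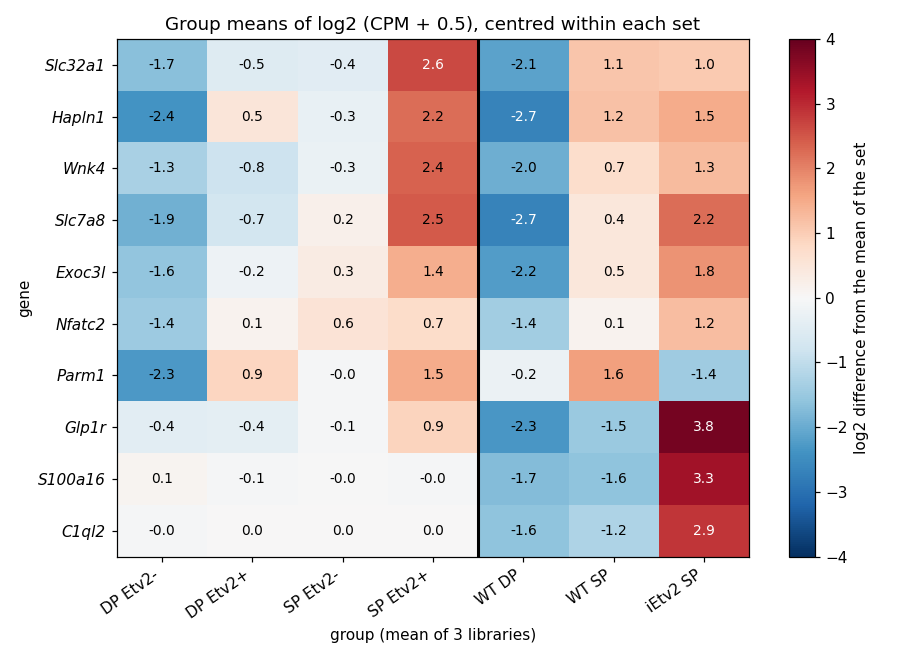
Mean of log2(CPM + 0.5) over 3 libraries for each of the 10 genes (rows) in the 7 groups (columns), centred within each set, with red above and blue below the mean of the set. Among the reporter groups the rows from Slc32a1 to Glp1r are highest in SP Etv2+, Parm1 is the row that is blue in iEtv2 SP, and Glp1r, S100a16 and C1ql2 are strongly red only in that column.

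Markers of several cell types moved with the members. The summed level of 15 endothelial markers was 23.8 to 33.3 CPM in DP Etv2-, 53.5 to 76.0 in DP Etv2+, 41.5 to 63.3 in SP Etv2- and 141 to 259 in SP Etv2+, and 25.3 to 41.0 in WT DP, 166 to 231 in WT SP and 1807 to 2258 in iEtv2 SP. Of these, 12 of 13 tested rose with the reporter in SP and 15 of 15 with induced Etv2, and Emcn and Cldn5 were at 0 in DP Etv2-. The summed level of 10 blood markers was 77.5 to 139.7 CPM in SP Etv2+ and 39.0 to 42.4 in SP Etv2-, with 8 of 8 tested higher and Hba-x at 0 in SP Etv2-. It was 77.6 to 125 CPM in WT SP and 99.4 to 111 in iEtv2 SP, with 3 higher and 4 lower, so like Slc32a1 and Hapln1 its sum overlapped between these groups. The sum of 13 neural markers was 29.3 to 37.9 CPM in SP Etv2+ and 29.1 to 36.1 in SP Etv2-. Of 6 tested there, 2 were higher, Tubb3 (2.74 ± 0.37) and Gad2 (1.89 ± 0.46), and 1 was lower, Stmn2 (-0.57 ± 0.12). Stmn2 averaged 16.17 of 32.73 CPM in SP Etv2+ and 23.96 of 33.19 in SP Etv2-. The neural sum rose from 35.6 to 41.6 CPM in WT SP to 113 to 168 in iEtv2 SP, where 5 of 8 tested were higher and Neurog1 was at 0. Stmn2, at 92.5 ± 15.6 CPM (SD, n = 3), made up most of it. The sum of 8 fibroblast or feeder markers was 65.4 to 171 CPM in DP Etv2- and 371 to 556 in DP Etv2+, with no overlap. There 3 of 5 tested were higher, Col1a1 by 2.28 ± 0.34 (adjusted p = 0.000334). Col1a1 alone made up most of these sums, with a mean of 86.7 of 102.6 CPM in DP Etv2- and 420.6 of 442.5 in DP Etv2+. In the same comparison Slc7a8, Hapln1, Parm1, Nfatc2 and Exoc3l were called higher. The sum was 187 to 238 CPM in SP Etv2- and 214 to 287 in SP Etv2+, which overlapped, with 1 of 5 higher. In the second set it was 60.9 to 138 CPM in WT DP, 197 to 264 in WT SP, with 1 of 5 higher, and 40.3 to 70.8 in iEtv2 SP, with 2 higher and 1 lower. Lum was at 0 in every group except DP Etv2+, and Fap in every group except SP Etv2+.

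The sum of 8 endoderm markers was 8.29 to 10.7 CPM in DP Etv2-, 12.2 to 14.8 in DP Etv2+, 17.3 to 22.1 in SP Etv2- and 34.9 to 59.8 in SP Etv2+. In the second set it was 21.5 to 52.1 CPM in WT DP, 62.1 to 80.5 in WT SP and 167 to 194 in iEtv2 SP. No neighbouring groups in these orders overlapped. Most of the sum came from Hhex and from Sox17, which is also in the endothelial list. They averaged 28.15 and 12.6 of 44.58 CPM in SP Etv2+, and 109 and 53.27 of 184.6 CPM in iEtv2 SP. For the reporter in SP, Apoa1 was at 3.20 ± 0.48 and Cer1 at -1.98 ± 0.47. Foxa2 was not called there (-0.25 ± 0.25) or with induced Etv2 (0.02 ± 0.52). Of 5 tested, 1 was higher and 1 lower with the reporter in DP, 3 and 1 in SP, 3 and 0 for the gate in WT, and 2 and 1 with induced Etv2, and Alb was at 0 in SP Etv2- and SP Etv2+. The sum of 8 cardiomyocyte markers was 30.6 to 39.8 CPM in DP Etv2- and 48.6 to 57.9 in DP Etv2+, with 2 of 6 tested higher and 1 lower, and 31.1 to 46.6 in SP Etv2- against 36.0 to 37.6 in SP Etv2+. It was 56.4 to 99.6 CPM in WT DP, above the WT SP range given with Parm1. The part of these cell types in the differences of the 10 genes was not tested.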

How the data were processed

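Total RNA of sorted embryoid body cells was sequenced in 21 libraries, 3 in each of 7 groups taken from the sample titles. The deposited values are unnormalized counts of reads per Ensembl gene ID, made by the authors with featureCounts against mm10 per the submitters' processing notes. Kits were stranded, per the labels' protocols. Aligner, annotation, strand setting and version are not given in the sources used here. The 12 reporter-line libraries were deposited as a table of counts. The 9 WT and iEtv2 libraries were deposited as separate files, which also held summary lines for reads outside genes of a kind that featureCounts does not write (3.95 to 5.25% unmapped, 7.34 to 8.75% multimapping, 5.04 to 7.91% in no feature, 4.3 to 4.91% ambiguous). These lines entered neither library sizes nor tests, and the sets were not compared with each other. Of 55487 gene IDs, 55227 were named from GENCODE M21 on mm10 and 260 were not.

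In R 4.3.3, edgeR 4.0.16 was run separately on the 12 and the 9 libraries, with TMM scaling, filterByExpr, a term per group and two-sided quasi-likelihood tests. All adjusted p-values are from this test with Benjamini-Hochberg adjustment over all genes tested (17690 and 16288), and SE is the log2 difference divided by the square root of F. There were 7 comparisons: the Etv2 reporter within each gate, the difference between those effects, the gate (SP over DP) in reporter-negative, reporter-positive and WT cells, and iEtv2 SP over WT SP. Intervals of count ratios are exact binomial ones. The script was tested on simulated data.

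The members, their lists of relatives and the marker lists were chosen with earlier results of these data known. The text names all 10 members and Etv2, Kdr and Pdgfra. Of each list it names up to 3 called relatives with the largest log2 difference and a mean of at least 1 CPM in a set, and Slc3a2; 1 such relative is not reported here. It also names the 2 genes nearest in pattern over 7 group means, among 11851 genes with at least 1 CPM in a group of each set, and neighbours on the chromosome. Exoc6, Hprt, Podxl, Spn, Cd164 and the single markers were singled out after their values were seen. Gm14205 shares 697 exon bases with Slc32a1 and Gm11615 306 with Wnk4.

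Same-numbered libraries deviated together in both reporter comparisons, with correlations of 0.175 to 0.342 in DP and 0.143 to 0.268 in SP over 3 pairs each. The numbers were therefore taken to pair these libraries, from the data and not from the labels. The main fit does not use this pairing, and the fit with the replicate number as a block is given beside it where a call differs. Libraries of a group differed from each other in the counts of 24909 to 26977 genes. The fits were repeated with DESeq2 1.42.0, with RLE or upper-quartile scaling, without the filter or with a minimum of 1 CPM in 3 libraries, with the replicate number as a block, on only the groups compared, and with each library left out. Leaving out both libraries high in ribosomal RNA was chosen after seeing the data.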

Additional observations from a re-analysis of the deposited data

Results flagged for a closer look

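The reporter effect on Parm1 was smaller in SP than in DP, by -1.73 ± 0.39 on the log2 scale, and was flagged because the difference between the gates was itself tested and called. Without single libraries it ranged as far as -1.48 and -2.40 (replicates 2 and 3 of DP Etv2-). The call was lost without replicate 1 (-1.49) or 2 of DP Etv2-, replicate 2 (-1.69) or 3 (-1.65) of DP Etv2+, replicate 1 (-1.74) or 3 (-1.56) of SP Etv2-, or replicate 2 (-1.64) or 3 (-1.76) of SP Etv2+.

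The same difference for Nfatc2 was -1.55 ± 0.36. Its call was lost without replicate 1 (-1.37) or 2 (-1.32) of DP Etv2-, replicate 2 (-1.47) or 3 (-1.53) of DP Etv2+, replicate 1 (-1.51) or 3 (-1.41) of SP Etv2-, or any of the 3 libraries of SP Etv2+ (-1.59, -1.60 and -1.47). Without both libraries high in ribosomal RNA, Parm1 gave -1.92 and Nfatc2 -1.65, neither called.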

How the results depend on the processing

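Of 60 fold changes of the members and 7 counts of called genes, none changed sign in a called comparison under the alternatives run, and RLE scaling, upper-quartile scaling and the filter of 1 CPM in 3 libraries changed no call of a member and no count by over 1.5 times. The counts of called genes were 5435 and 4504 for the reporter in DP and in SP, 1936 and 2456 for the gate without and with the reporter, 702 for the difference between the reporter effects, 2580 for the gate in WT and 8274 for induced Etv2. Fitting only the groups compared gave 1324 for the gate with the reporter. For the difference between the reporter effects, no filter gave 1740, DESeq2 1237 and the replicate block 1537. Without both libraries high in ribosomal RNA, 2459 genes were called for the reporter in SP, 1106 for the gate with the reporter and 119 for the difference. Leaving out 1 library at a time gave 787 to 2268 for the gate without the reporter (787 and 815 without replicates 1 and 2 of DP Etv2-, 1049 and 1092 without replicates 1 and 3 of SP Etv2-), 1342 to 2403 for the gate with it (1359, 1593 and 1342 without replicates 1, 2 and 3 of SP Etv2+), 50 to 1268 for the difference (50 and 1268 without replicates 2 and 3 of DP Etv2-) and 1509 to 2683 for the gate in WT (1509 without replicate 1 of WT SP, 1525 without replicate 3 of WT DP). The cause was not tested. Upper-quartile scaling moved the reporter calls in SP from 2314 higher and 2190 lower to 1800 and 2653. DESeq2 ended the call of Hapln1 for the gate with the reporter (1.82) and added 4 calls, of Slc32a1 for the reporter in DP (3.09, adjusted p = 0.016) and the gate without the reporter (3.35, 0.0149), Wnk4 for the difference (2.19, 0.0235) and C1ql2 for the gate in WT (3.43, 0.0477). Without the filter 10 calls were added: these 4, Wnk4 for the reporter in DP (0.59) and the gate without the reporter (1.27), Parm1 and Nfatc2 for the gate with it (both 0.61), Hapln1 for the difference (-0.71) and Hapln1 with induced Etv2 (0.37). Fitting only the groups compared added 4, Slc32a1 for the reporter in DP (3.09), Wnk4 for the gate without the reporter (1.28), and Parm1 (0.61) and Nfatc2 (0.62) for the gate with it. Slc32a1 for the reporter in DP was also called without both libraries high in ribosomal RNA (adjusted p = 0.0286). Leaving out replicate 1 of SP Etv2- added Slc32a1 for the gate without the reporter (3.78), and leaving out replicate 1 of SP Etv2+ added Wnk4 for the difference (2.41). With a pseudocount of 2 CPM in place of 0.5, 9 of the 20 matches between a member and a gene nearest in pattern remained. Outside the reporter comparisons at least 1 same-numbered pair had a correlation too low to call the libraries paired (0.0962 and 0.0767 for the gate without and with the reporter, 0.0916 in WT, -0.0763 for induced Etv2). All 6 libraries still correlated best with their own number in each of the 3 gate comparisons, a hint from the data and not the design, against 3 of 6 for induced Etv2. There the replicate block called Slc32a1 (3.34) and Wnk4 (1.27) for the gate without the reporter, Parm1 for the gate with it (0.61), Wnk4 for the difference (2.14) and C1ql2 for the gate in WT (3.11). It changed no other call of a member beyond those given in the text and no other count by over 1.5 times. Depth limits S100a16 and C1ql2 in the reporter line, where they were not tested.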
